A study of Mus musculus with 4 samples.

Results

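Of the genes that changed most when mouse islets were moved to high glucose, *Ttyh1*, *Fam46a* and *Cyb5r1* each belong to a small family. With other members of these families, the 9 genes *Ttyh1*, *Ttyh2*, *Ttyh3*, *Fam46a*, *Fam46b*, *Fam46c*, *Cyb5r1*, *Cyb5r3* and *Cyb5r4* are described here, out of 24157 genes and lncRNAs in the table. *Fam46d*, *Cyb5r2* and *Cyb5rl*, of the same families, are not among the 9 and are given beside them. The members were taken by gene symbol, and where a symbol had several entries the one with the highest mean was kept. *Ttyh1* was listed with 3 identical entries and *Fam46a* with 2. The values that singled out *Ttyh1*, *Fam46a* and *Cyb5r1* are the differences between the same 4 libraries given below, and since these genes were chosen by them, the differences are a description and carry no test.

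RNA was measured by RNA-seq in whole islets, the clusters of endocrine cells in the pancreas, from male C57bl6 mice aged 3 months with no genetic change named. All islets were cultured overnight at 11 mM glucose and then kept for 2 h at 2.8 mM glucose, and 2 libraries were made after culture at 2.8 mM glucose (low glucose) and 2 after culture at 16.8 mM glucose (high glucose). The labels give 12 h for the high glucose libraries and 2 h for the low glucose libraries, whereas the published methods state an equal final incubation for both, and if the labels are right, glucose and time cannot be told apart. The published study states that the control islets came from the same pool as the stimulated ones, and p-values then measure only the spread between these libraries, which may be technical.

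Tweety homologues (*Ttyh1* to *Ttyh3*) are membrane proteins that have been described as chloride channels, and *Ttyh1* is best known from the nervous system. The FAM46 proteins, now named TENT5, are non-canonical poly(A) polymerases, which lengthen the tail of mRNAs after transcription and thereby act on their stability. Cytochrome b5 reductases pass electrons from NADH or NADPH to cytochrome b5 or related acceptors, which serve fatty acid desaturation, sterol synthesis and the reduction of methaemoglobin. Within that family, *Cyb5r4* is known for its link to beta cells, since mice without it lose them and become diabetic.

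Values are RPKM, read numbers divided by the transcript's span and the library's depth, as the authors deposited them. The spans include introns, and the depth behind the values, recovered from their steps, was 50800000 to 60710000 reads per library. The markers of the labelled tissue were in place. Summed over 8 endocrine genes, with *Ins2* and *Ins1* the highest, the level was 24037 to 27379 RPKM at low and 44805 to 48711 RPKM at high glucose, and 4 of the 8 rose (limma, as given below). For 9 markers of acinar and duct cells the sum was 89.7 and 257 RPKM at low and 218 and 454 RPKM at high glucose, and 0 of the 8 that reached the minimum for the test passed it, with a median difference of 1.04 on the log2 scale. Of these 8, 4 had an unadjusted p under 0.05, and by voom on the reconstructed reads 8 of the 9 markers passed, so whether exocrine markers were higher at high glucose depended on the test. The 6 glial markers summed to 1.67 and 1.52 RPKM at low and 0.697 and 0.683 RPKM at high glucose, 5 of them staying under 1 RPKM in every library. Of the endothelial (5), leukocyte (9) and stromal (6) markers, 4, 8 and 5 stayed under 1 RPKM in every library, and no marker was at 0 in all libraries. The part of these cells in the changes below was not tested, and in whole islets fewer cells of a type and less RNA per cell cannot be told apart.

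Among the 9 members, 1 in each of the 3 families differed strongly between the concentrations. *Ttyh1* and *Fam46a* were higher and *Cyb5r1* was lower at high glucose, and the smallest of these differences was 2.17 on the log2 scale, against at most 0.22 for the other 6 members. Differences are those of the mean log2(RPKM + 0.5), a scale that understates the change of low genes. Among the 6845 genes with a mean of at least 1 RPKM, 38 differed by more than 2 on this scale (0.555%), 25 of them higher and 13 lower at high glucose. By size, *Ttyh1* was number 7 and *Fam46a* number 12 of those higher, and *Cyb5r1* number 10 of those lower. The high and low glucose libraries did not overlap for 7 of the 9 members, 5 with both high glucose values above and 2 with both below. *Ttyh1*, *Fam46a* and *Cyb5r1* are among the 7 and, being chosen by these differences, could hardly have overlapped. Of the other 6 members, *Ttyh3*, *Fam46b*, *Fam46c* and *Cyb5r4* did not overlap, and *Ttyh2* and *Cyb5r3* did. Over all 22481 genes with any reads, the groups did not overlap for 59.4%.

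**Figure D1:**
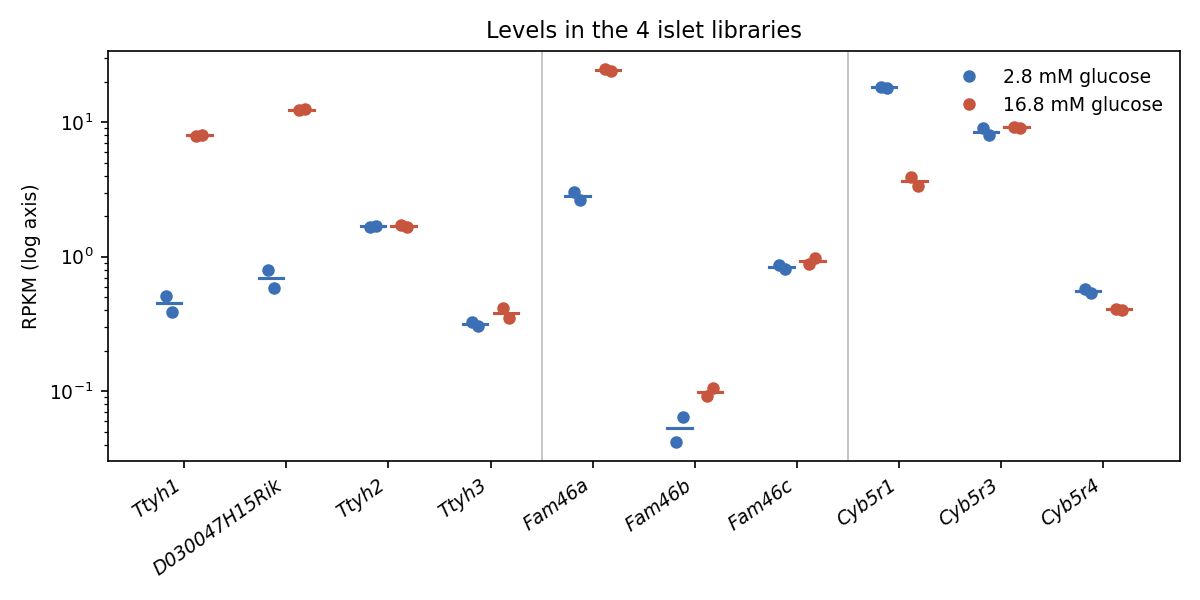
RPKM on a log axis for each of the 9 members and for *D030047H15Rik*, which overlaps *Ttyh1*, with 1 point per library, the short line at the mean of the 2 libraries, blue for 2.8 mM and red for 16.8 mM glucose. The 2 colours lie far apart for *Ttyh1*, *D030047H15Rik*, *Fam46a* and *Cyb5r1* and close together for the other members.

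*Ttyh1* (chromosome 7, 4071010 to 4088308, plus strand, NCBI build 37) was at 0.510 and 0.388 RPKM in the low glucose libraries and at 7.92 and 8.02 RPKM in the high glucose libraries. Both high glucose values lay far above both low glucose values, which were themselves further apart in proportion. The mean went from 0.449 ± 0.086 RPKM (SD, n = 2) to 7.97 ± 0.072 RPKM (SD, n = 2). This was a difference of 3.16 on the log2(RPKM + 0.5) scale and a ratio of 17.8 between the means, the added 0.5 RPKM being larger than the mean at low glucose.

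The value listed as *Ttyh1* cannot be read as that of *Ttyh1* alone. *D030047H15Rik*, a non-coding gene of 3 exons on the opposite strand (chromosome 7, 4077942 to 4088528), overlaps the listed *Ttyh1* transcript, whose values fit the annotated span from 4071135 to 4087843, over 9.90 kb, or 59.3% of its span. *D030047H15Rik* was at 0.793 and 0.585 RPKM at low and at 12.3 and 12.5 RPKM at high glucose, a difference of 3.44 on the log2 scale. Taken back to reads, *Ttyh1* held 498 and 337 reads at low and 8036 and 6811 reads at high glucose, and *D030047H15Rik* held 491 and 322 reads at low and 7903 and 6711 reads at high glucose. The reads of the antisense gene were thus 95.5% to 98.6% of those of *Ttyh1* in number.

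The library kit does not mark strand, and the counts behave accordingly. In 49 of 53 pairs in which a gene lies inside another on the opposite strand and holds at least 50 reads, the outer gene held at least as many reads as the inner one (92.5%). With counting over the whole span, reads inside the shared 9.90 kb would therefore be counted for both genes. The published methods instead describe counting the reads that fall on RefSeq exons, whereas the values here fit lengths that include introns. The read numbers given here assume counting over the whole span, which was not tested on the reads themselves. Outside it lie 6807 bp of *Ttyh1*, with 4 of the 14 exons of its main transcript. Also outside it lie 685 bp of *D030047H15Rik*, which hold a whole exon of that gene. The counts differed by 7 and 15 reads at low and by 133 and 100 reads at high glucose, which is the number in the part of *Ttyh1* outside the overlap less the number in the 685 bp of the other gene.

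That difference is the least number of reads that can lie in the unshared part of *Ttyh1*. The reads of the other gene's unshared exon are taken off, so the true number can be larger by an unknown amount. Spread over the 6807 bp the least number came to 0.018 and 0.042 RPKM at low and to 0.322 and 0.289 RPKM at high glucose. These lower bounds did not overlap between the groups and lay far below the values listed for the gene. Since each is short by an unknown amount, whether the unshared part itself differed cannot be told from them. A lower bound does not give the level of *Ttyh1* itself. How many of the shared reads belong to either strand cannot be told apart from these files.

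**Figure D2:**
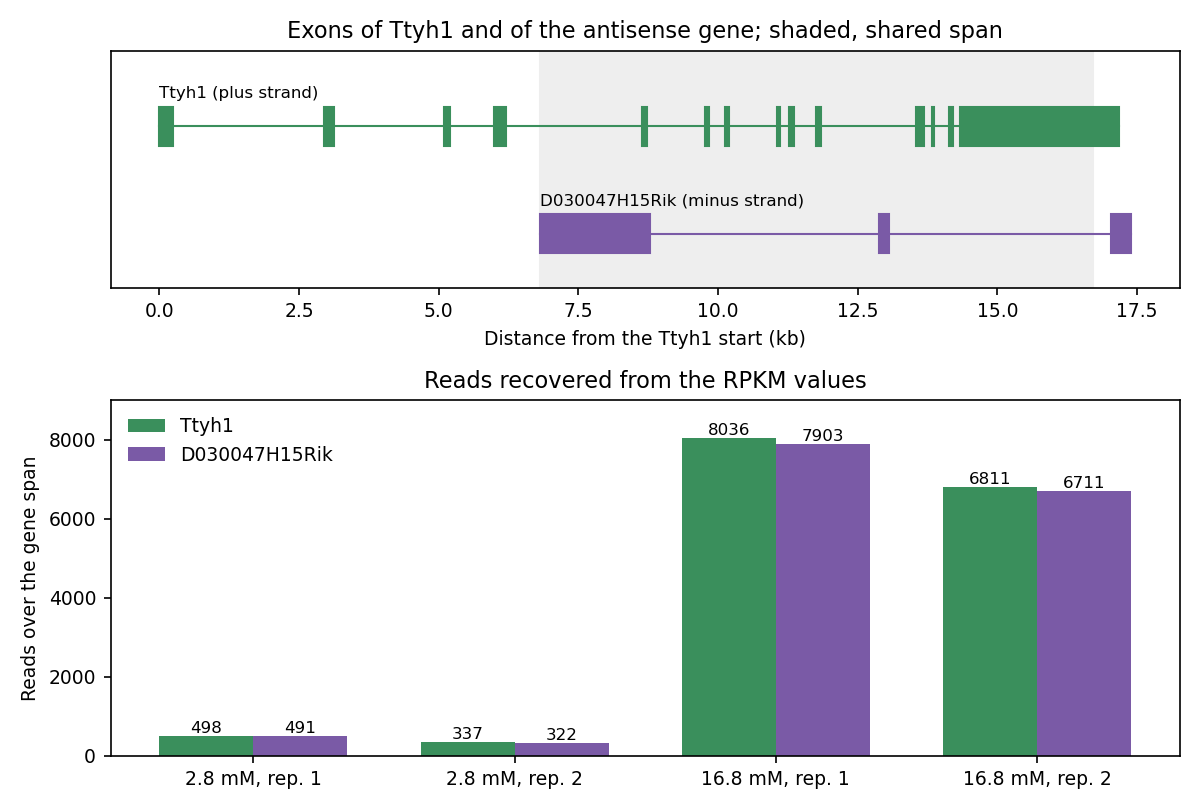
Top, exons (boxes) of the main *Ttyh1* transcript in the annotation and of *D030047H15Rik* by distance in kb from the *Ttyh1* start, with the span that the listed transcripts share shaded; the listed *Ttyh1* transcript ends inside the last box. Bottom, reads over the span of each gene in the 4 libraries (bars from 0), which differ by 7 to 133 reads between the genes in any library.

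The genes next to the pair differed far less on the log2 scale. *Leng8*, which starts 113 bp from the start of *D030047H15Rik* and runs away from it, was at 7.45 and 7.64 RPKM at low and at 9.06 and 7.96 RPKM at high glucose (difference 0.16, standard error 0.11, adjusted p = 0.307 from limma). *Lair1*, 56.2 kb away on the other side, stayed at or under 0.027 RPKM with overlap between the groups. *9430041J12Rik*, which overlaps the beginning of *Ttyh1* on the opposite strand, was at 0.0059 and 0.0066 RPKM at low and at 0.024 and 0.0224 RPKM at high glucose. At this very low level it too was higher at high glucose, with a ratio of 3.71 between the means (adjusted p = 0.0296 from limma without the minimum), and reads in its overlap with *Ttyh1* would be counted for both.

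The sequences directly before the RefSeq starts of the 2 overlapping genes are shown because the reads do not tell which of them was transcribed. They are RefSeq promoter windows (from build GRCm38.p6), found unchanged and once in NCBI build 37, and hold no annotated exon. Capitals mark matches on either strand to TGACG (the core of the cAMP response element), GGGCGG (GC box) and CCAAT; the full element TGACGTCA, the E-box CACGTG and TATAAA were searched too and had no match in them. The window of *Ttyh1* is chr7:4071027-4071131 (plus strand) and that of *D030047H15Rik* is chr7:4088529-4088633 (minus strand), each of 105 bases, 5′ to 3′.
Ttyh1: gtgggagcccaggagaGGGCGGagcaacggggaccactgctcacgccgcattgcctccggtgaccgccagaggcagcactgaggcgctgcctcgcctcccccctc
D030047H15Rik: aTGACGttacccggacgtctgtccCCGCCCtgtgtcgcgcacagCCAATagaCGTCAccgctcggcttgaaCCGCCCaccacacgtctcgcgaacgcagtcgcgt

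The *D030047H15Rik* window held 5 matches, of which 2 were TGACG, beginning 104 and 53 bases before the start, the second on the other strand. At least 1 TGACG was found in 10.8% and 2 or more in 2.05% of the 32851 RefSeq windows of the same length. The same 5 matches lie in the window before a start of *Leng8*, which shares these bases on the other strand and did not pass the test. The *Ttyh1* window lies inside the gene as annotated, which begins at 4071010, and inside the span of *9430041J12Rik* (4025727 to 4072330). The window held a single match, to GGGCGG, which 25.2% of windows hold. Such matches describe the letters only, and the motifs were chosen with the windows known.

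*Ttyh2* and *Ttyh3*, the paralogues of *Ttyh1*, stayed close to their levels. *Ttyh2* (chromosome 11, 114536745 to 114582291, plus strand) was at 1.66 and 1.71 RPKM at low and at 1.72 and 1.65 RPKM at high glucose. The groups overlapped, and the difference of 0.004 on the log2 scale (standard error 0.08) did not pass the test (adjusted p = 0.972). This test was limma on the 7867 transcripts averaging 1 RPKM or more, of which 33.4% were called at an adjusted p under 0.05, 10.7% as higher and 22.8% as lower at high glucose. The median difference of all of them was -0.11.

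*Ttyh3* (chromosome 5, 141096540 to 141124985, minus strand) was at 0.326 and 0.306 RPKM at low and at 0.413 and 0.350 RPKM at high glucose. Both high glucose values were the larger, but the gap to the low glucose values was smaller than the distance between the high glucose libraries. Its level was under the minimum for the test, and without that minimum the difference of 0.11 did not pass (standard error 0.05, adjusted p = 0.247 from limma, where 14.1% of 26272 transcripts were called).

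The order of the tweety genes turned with glucose and with the length used. Per kilobase of span, *Ttyh2* was the highest at low glucose (1.68 RPKM on average) ahead of *Ttyh1* (0.449 RPKM) and *Ttyh3* (0.316 RPKM), and *Ttyh1* was the highest at high glucose (7.97 RPKM). Per kilobase of exons, taking all reads as exonic and scaling to depth as in RPKM, the levels at low glucose were 20.5 for *Ttyh2*, 1.93 for *Ttyh3* and 1.18 for *Ttyh1*. On this exon scale *Ttyh1* reached 20.8 and 21.1 at high glucose, which overlaps the 21.0 and 20.1 of *Ttyh2*. The values of *Ttyh1* in either order carry the shared reads of *D030047H15Rik*.

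*Fam46a* (chromosome 9, 85214046 to 85220731, minus strand), whose human counterpart is known from a bone fragility disorder, was at 3.02 and 2.62 RPKM in the low glucose libraries and at 24.7 and 24.1 RPKM in the high glucose libraries. The groups lay far apart, and the distance between replicates was small beside it. The mean went from 2.82 ± 0.28 RPKM (SD, n = 2) to 24.4 ± 0.41 RPKM (SD, n = 2), a difference of 2.91 on the log2 scale and a ratio of 8.65. In reads these were 1181 and 910 against 10015 and 8184.

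No gene in the annotation of NCBI build 37 overlaps *Fam46a*. The nearest genes with a value are *Ibtk*, 360 kb away, at 0.874 and 0.837 RPKM at low and 0.732 and 0.769 RPKM at high glucose, and *Bckdhb*, 1196 kb away, at or under 0.091 RPKM. Both lay lower at high glucose, without overlap between the groups. The second entry of *Fam46a*, at 3.01 and 2.61 RPKM at low and 24.6 and 24.0 RPKM at high glucose, gave the same difference of 2.91.

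*Fam46b* (chromosome 4, 133036047 to 133043853, plus strand) was hardly detected, at 0.042 and 0.064 RPKM at low and at 0.093 and 0.106 RPKM at high glucose. It rested on 19 and 26 reads at low and 44 and 42 reads at high glucose, so that both high glucose values were the larger, with a ratio of 1.88 between the means and a difference of 0.12 on the log2 scale. On the reconstructed reads, with no constant of 0.5 RPKM, the difference was 0.93, and like that of the other FAM46 members it is given without a test. *Gm13257*, which has no value here, overlaps it on the other strand. *Trnp1*, 3.16 kb from *Fam46b*, was at 1.59 and 1.83 RPKM at low and at 1.14 and 1.20 RPKM at high glucose. That difference of -0.40 (standard error 0.09) passed the test (adjusted p = 0.0141 from limma, and 0.00283 from voom on the reconstructed reads).

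*Fam46c* (chromosome 3, 100255551 to 100293247, minus strand), known as a tumour suppressor in plasma cells, was at 0.870 and 0.809 RPKM at low and at 0.886 and 0.971 RPKM at high glucose. The nearest low and high glucose values almost met, and the difference was 0.09. *Fam46d*, the remaining paralogue, was at 0.104 and 0.081 RPKM at low and at 0.089 and 0.085 RPKM at high glucose, with overlap.

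Among the FAM46 genes, *Fam46a* was ahead of *Fam46c* per kilobase of span at both concentrations, with *Fam46b* and *Fam46d* lowest. At low glucose *Fam46a* exceeded *Fam46c* by 2.82 against 0.839 RPKM on average, and at high glucose by 24.4 against 0.929 RPKM. By span *Fam46d* was above *Fam46b* at low glucose (means of 0.092 and 0.053 RPKM). At high glucose *Fam46b* was above *Fam46d* (0.099 and 0.087 RPKM), without overlap between the libraries of the 2 genes in either group. Per kilobase of exons, *Fam46d* was above *Fam46b* at both, at 2.35 against 0.18 at low and 2.21 against 0.34 at high glucose. On that scale *Fam46a* was at 3.44 at low and 29.8 at high glucose, and *Fam46c* has no value.

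*Cyb5r1* (chromosome 1, 136302358 to 136308317, plus strand), a membrane-bound reductase, was at 18.19 and 18.04 RPKM at low and at 3.93 and 3.34 RPKM at high glucose. Both high glucose values lay far under both low glucose values. The mean went from 18.1 ± 0.10 RPKM (SD, n = 2) to 3.64 ± 0.42 RPKM (SD, n = 2), so the level at low glucose was 4.98 times that at high glucose and the difference was -2.17 on the log2 scale. In reads these were about 6335 and 5585 against about 1423 and 1009.

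No annotated gene overlaps *Cyb5r1*. *Adipor1*, the adiponectin receptor gene 3.64 kb downstream, was at 5.41 and 4.90 RPKM at low and at 4.19 and 3.90 RPKM at high glucose, a difference of -0.31 (standard error 0.10) that did not pass the test (adjusted p = 0.0538 from limma). On the reconstructed reads that difference was -0.35 and passed (adjusted p = 0.00696 from voom). *4933406M09Rik*, 14.8 kb on the other side, was hardly detected, at 0.024 and 0.027 RPKM at low and at 0.0033 and 0.0078 RPKM at high glucose. It was lower at high glucose without overlap, as *Cyb5r1* was (adjusted p = 0.0361 from limma without the minimum).

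The windows of 250 bases before the starts of *Fam46a* and *Cyb5r1*, which unlike *Ttyh1* are overlapped by no annotated gene, are shown to set their composition side by side. These windows come from the same RefSeq table, were found once in NCBI build 37 and hold no annotated exon. The window of *Fam46a* is chr9:85220758-85221007 (minus strand), before the start lying farther upstream of its 2 RefSeq starts, and that of *Cyb5r1* is chr1:136302108-136302357 (plus strand). Capitals mark matches to the same 6 motifs.
Fam46a: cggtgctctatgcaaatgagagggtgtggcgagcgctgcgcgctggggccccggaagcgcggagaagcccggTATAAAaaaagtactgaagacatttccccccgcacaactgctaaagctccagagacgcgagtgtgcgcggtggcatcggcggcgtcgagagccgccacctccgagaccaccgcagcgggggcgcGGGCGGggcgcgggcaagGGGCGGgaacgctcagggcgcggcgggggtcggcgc
Cyb5r1: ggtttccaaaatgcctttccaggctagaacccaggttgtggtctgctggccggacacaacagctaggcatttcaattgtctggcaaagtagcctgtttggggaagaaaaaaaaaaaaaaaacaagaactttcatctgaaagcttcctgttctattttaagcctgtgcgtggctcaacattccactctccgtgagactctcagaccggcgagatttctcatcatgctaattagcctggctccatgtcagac

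The *Fam46a* window was 70.0% G or C and held 2 matches to GGGCGG, which 32.7% of all 32851 windows hold, and TATAAA, found in 12.4% of windows, beginning 178 bases before the start. The *Cyb5r1* window was 46.0% G or C, under the median of 52.4%, and held none of the 6 motifs, as did 30.4% of windows. Of the motifs without a match in either window, TGACG is held by 17.8% of windows of this length, CCAAT by 33.8%, CACGTG by 6.02% and TGACGTCA by 1.55%.

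*Cyb5r3* (chromosome 15, 82983924 to 83003022, minus strand), the main reductase of the endoplasmic reticulum and of red cells, was at 9.07 and 7.97 RPKM at low and at 9.24 and 9.05 RPKM at high glucose. The groups overlapped, and the difference of 0.10 (standard error 0.12) did not pass the test (adjusted p = 0.532 from limma). Its neighbour *Poldip3*, 4.11 kb away, differed by -0.28 (standard error 0.10, adjusted p = 0.0643 from limma, and 0.0128 from voom on the reconstructed reads).

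*Cyb5r4* (chromosome 9, 86916849 to 86972609, plus strand) was at 0.576 and 0.540 RPKM at low and at 0.407 and 0.404 RPKM at high glucose. Both high glucose values were the smaller, on 1878 and 1564 reads at low and 1378 and 1144 reads at high glucose. It lay under the minimum for the test. Without the minimum its difference of -0.22 had an adjusted p of 0.0541 (limma, standard error 0.04), and on the reconstructed reads, where 41.8% of 19165 transcripts were called, its difference was -0.46 with an adjusted p of 0.00203 (voom, standard error 0.10). Whether *Cyb5r4* is called lower thus depended on the setting.

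The other 2 reductase genes were low. *Cyb5r2* was at 0.425 and 0.390 RPKM at low and at 0.148 and 0.125 RPKM at high glucose, the groups apart in the direction of *Cyb5r1*, and *Cyb5rl* was at 0.436 and 0.402 RPKM at low and at 0.412 and 0.381 RPKM at high glucose, with overlap. The mean of *Cyb5r2* at low glucose was 2.98 times that at high glucose, on 237 and 193 reads against 86 and 61 reads. Both genes were under the minimum for the test. Without the minimum *Cyb5r2* was called lower (difference -0.51, standard error 0.04, adjusted p = 0.024 from limma), as it was on the reconstructed reads (difference -1.56, standard error 0.22, adjusted p = 3.2e-05 from voom), and *Cyb5rl* passed neither (adjusted p = 0.631 and 0.681).

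The leading reductase by span changed between the concentrations. *Cyb5r1* was above *Cyb5r3* at low glucose (18.1 against 8.52 RPKM) and below it at high glucose (3.64 against 9.15 RPKM). Per kilobase of exons, *Cyb5r3* was ahead at both, at 37.1 against 25.6 for *Cyb5r1* at low and 39.8 against 5.14 at high glucose, since a larger part of its span is intron. *Cyb5r4*, at 4.59 and 3.33 on the exon scale, was below both at either concentration.

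**Figure D3:**
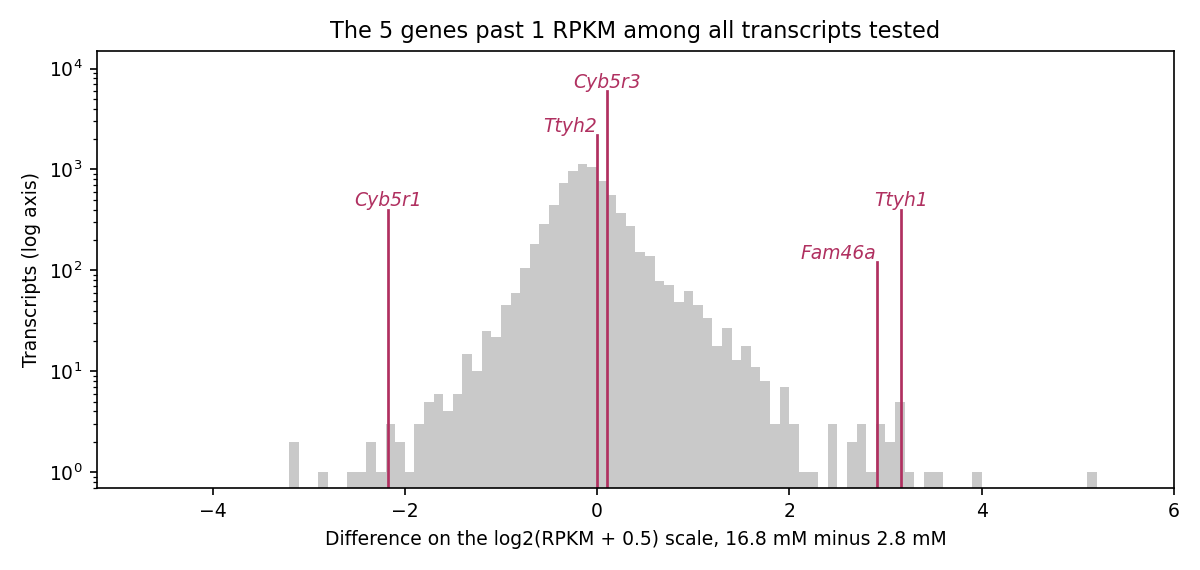
Number of transcripts (log axis) by their difference on the log2(RPKM + 0.5) scale, 16.8 mM minus 2.8 mM glucose, for the 7867 transcripts averaging 1 RPKM or more, with lines at the 5 of the 9 members that reach it; line heights carry no value. *Ttyh1* (3.16), *Fam46a* (2.91) and *Cyb5r1* (-2.17) stand in the sparse tails, and *Ttyh2* (0.004) and *Cyb5r3* (0.10) in the bulk.

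Some genes that share a role with each family changed. Where the mean was at least 1 RPKM, each did so by less than 1 on the log2(RPKM + 0.5) scale. Under that minimum, *Cyb5r2* of the cytochrome b5 list differed by -1.56 on the reconstructed reads (adjusted p = 3.2e-05 from voom). *Clic3* of the anion channel list differed by 1.21 (adjusted p = 0.00765 from voom). Among 35 other anion channel and transporter subunit genes, 10 reached the minimum, of which 1 rose and 4 fell (all transcripts, 33.4%), with a median of -0.18 beside -0.11 for all transcripts. *Clic1*, a chloride intracellular channel protein, rose from 5.25 ± 0.33 to 7.91 ± 0.48 RPKM (SD, n = 2 each; difference 0.55, adjusted p = 0.00984 from limma). *Tmem206*, the proton-activated chloride channel, fell from 4.41 ± 0.044 to 2.80 ± 0.048 RPKM (difference -0.58, adjusted p = 0.0042). *Clcn7*, the lysosomal chloride-proton exchanger, fell from 1.505 ± 0.017 to 0.913 ± 0.094 RPKM (difference -0.51, adjusted p = 0.00499). Without replicate 1 at low glucose, 3 of the 10 were called, where 27% of all transcripts were called.

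Of 35 genes that make, bind or shorten poly(A) tails, 19 reached the minimum. Of these 19, 1 rose and 3 fell (21.1%, beside 33.4% of all transcripts), with a median of -0.17. *Pabpn1*, the nuclear poly(A)-binding protein, rose from 9.20 ± 0.81 to 13.2 ± 1.54 RPKM (SD, n = 2 each; difference 0.50, adjusted p = 0.0276 from limma). *Pabpc4*, a cytoplasmic poly(A)-binding protein, fell from 5.74 ± 0.0047 to 3.35 ± 0.0083 RPKM (difference -0.70, adjusted p = 0.00237). *Cpeb1*, which recruits poly(A) polymerases to mRNAs in the cytoplasm, fell from 1.82 ± 0.088 to 1.14 ± 0.074 RPKM (difference -0.50, adjusted p = 0.00534). With each library centred on its median, 8 of the 19 were called, 2 higher and 6 lower, where 47.9% of all transcripts were called.

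Of 21 genes of cytochrome b5, the enzymes it serves and other reductases, 18 were in the table and 10 reached the minimum. Of these 10, 1 rose and 2 fell (30%, beside 33.4% of all transcripts), with a median of -0.12. *Scd2*, a stearoyl-CoA desaturase, rose from 4.60 ± 0.067 to 6.87 ± 0.61 RPKM (SD, n = 2 each; difference 0.53, adjusted p = 0.0109 from limma). *Fads1*, the delta-5 desaturase, fell from 1.98 ± 0.028 to 1.35 ± 0.065 RPKM (difference -0.42, adjusted p = 0.00826). *Cyb5a*, cytochrome b5 itself, fell from 1.21 ± 0.085 to 0.821 ± 0.030 RPKM (difference -0.37, adjusted p = 0.0127).

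**Figure D4:**
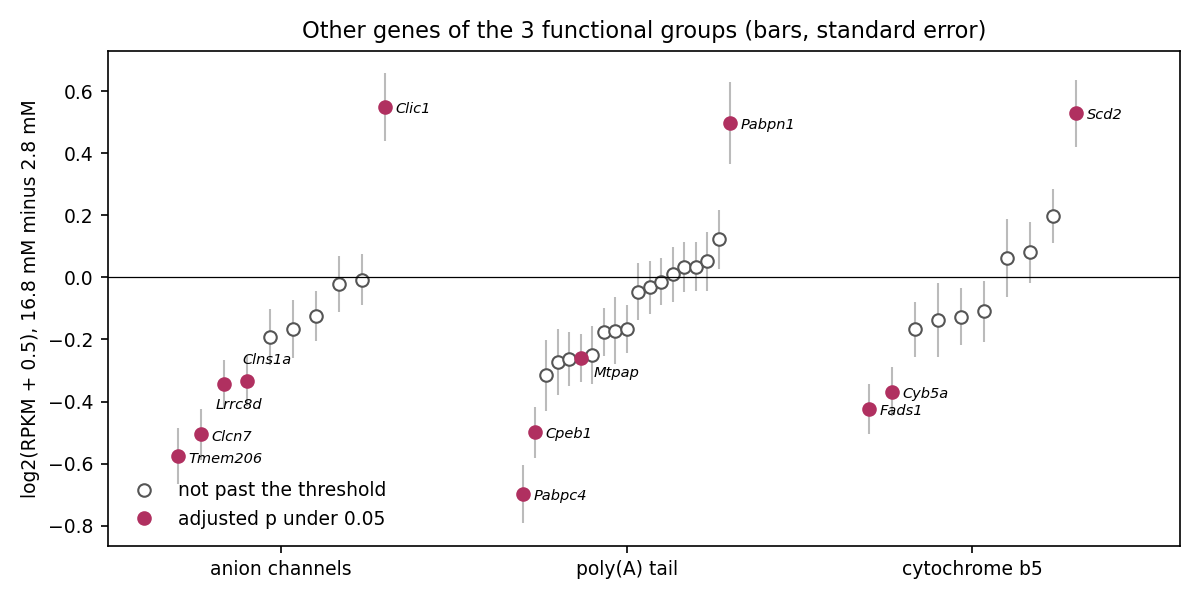
Difference on the log2(RPKM + 0.5) scale, 16.8 mM minus 2.8 mM glucose, of each gene of the 3 functional groups with a mean of at least 1 RPKM, bars showing the standard error and filled points an adjusted p under 0.05 (limma). Filled and named are 5 of 10 anion channel genes, 4 of 19 poly(A) tail genes and 3 of 10 cytochrome b5 genes, from -0.70 for *Pabpc4* to 0.55 for *Clic1*.

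The genes most alike in profile were found by the distance between the log2(RPKM + 0.5) values of the 4 libraries after each gene's mean was taken off, over the 6845 genes. With 4 libraries in 2 groups the measure mostly reflects the size of the difference. Nearest *Ttyh1* were *Pdyn*, the precursor of the dynorphin opioid peptides (distance 0.11), *C2cd4b* (0.16) and *Mir132* (0.25), the last listed at 0 in both low glucose libraries. *Pdyn* was at 1.88 and 1.41 RPKM at low and at 19.5 and 19.0 RPKM at high glucose, and *Mir132* at 3.55 and 4.54 RPKM at high glucose.

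Nearest *Fam46a* were *C2cd4a* (distance 0.10), an lncRNA without a gene symbol (0.16) and again *C2cd4b* (0.16). *C2cd4a* and *C2cd4b* lie next to each other near a locus tied to type 2 diabetes in humans. *C2cd4a* was at 0.523 and 0.503 RPKM at low and at 7.20 and 7.11 RPKM at high glucose, and *C2cd4b* at 4.47 and 4.31 RPKM at low and at 40.3 and 39.3 RPKM at high glucose. Nearest *Cyb5r1* were another lncRNA without a symbol (distance 0.015), *Entpd2* (0.11) and *Stbd1* (0.13). *Entpd2*, which breaks down extracellular ATP, was at 10.1 and 10.4 RPKM at low and at 2.19 and 1.60 RPKM at high glucose, and *Stbd1*, a glycogen-binding protein, at 16.1 and 14.8 RPKM at low and at 3.46 and 3.06 RPKM at high glucose.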

How the data were processed

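RNA-seq of whole mouse islets gave 2 libraries at 2.8 mM and 2 at 16.8 mM glucose. The authors deposited RPKM values per RefSeq transcript and lncRNA; their processing notes name STAR, bedtools, DESeq and the mm9 genome (NCBI build 37), with versions not given in the sources used here. No counts were used as deposited. Depth was recovered from the steps of low values, of which 88.6% to 90.4% per library were whole reads within 0.05 when the length was the genomic span, from which read numbers were rebuilt. They include PCR duplicates. For *Fam46c* the span could not be settled, so no reads are given, and for *Cyb5r1* they are approximate. Precision rests on 2 libraries a group of 50800000 to 60710000 reads each.

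Entries repeating a gene's values were dropped, leaving 28047 of 33923. log2(RPKM + 0.5) of the 7867 transcripts averaging 1 RPKM or more was tested in R 4.3.3 by limma 3.58.1 (trended variance, Benjamini-Hochberg adjustment, threshold 0.05). Other steps used Python 3.11.15, pandas 2.3.3, numpy 2.4.6 and matplotlib 3.10.9.

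Named were the 9 members, the remaining paralogues, genes overlapping a member and some genes next to one. Also named were the 3 most alike genes of each strong responder, and from each functional list the called genes with the 2 largest rises and falls. Genes next to *Ttyh2*, *Ttyh3*, *Fam46c* and *Cyb5r4*, and some next to *Fam46b* and *Cyb5r3*, are not named. The members and lists were chosen with earlier results of these data known. Alternatives were 0.1 or 1 RPKM added, no minimum, at least 1 RPKM in every library, no trend, quantile normalization, median centring, the replicate block, leaving out each library, voom on reconstructed reads (mean of at least 20), the ratio of means, the other entry of a symbol and exon lengths. Gene positions are from GENCODE vM1 and promoter windows from RefSeq; protein sequences were not used here.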

Additional observations from a re-analysis of the deposited data

How the results depend on the processing

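The direction of *Ttyh1*, *Fam46a* and *Cyb5r1* was the same under every alternative that was run. As these genes were chosen for large differences in the same libraries, it could hardly have turned. With 0.1 or 1 RPKM added, the differences were 3.89 and 2.63 for *Ttyh1* and 3.07 and 2.73 for *Fam46a*. From the ratio of means they were 4.15 for *Ttyh1*, 3.11 for *Fam46a*, 0.27 for *Ttyh3*, 0.91 for *Fam46b* and -0.46 for *Cyb5r4*, and from voom on the reconstructed reads 4.15, 3.11, 0.27, 0.93 and -0.46. The ratio of means and voom add less than 0.5 RPKM, or nothing, to low values. With each library left out in turn, the difference was 3.07 to 3.25 for *Ttyh1*, 2.82 to 3.00 for *Fam46a*, -2.28 to -2.07 for *Cyb5r1*, -0.02 to 0.03 for *Ttyh2* and 0.01 to 0.19 for *Cyb5r3*; the lone library of a group was then assumed to vary like the others. Transcripts called then numbered 1825 to 2579 beside 2628 with all libraries, anion channel genes 3 to 5, poly(A) tail genes 3 to 4 and cytochrome b5 genes 2 to 3.

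Scaling moved the split of calls, from 838 higher and 1790 lower as deposited to 1576 and 2154 after quantile normalization and 1662 and 2103 after median centring. Median centring called 8 of the 19 poly(A) tail genes tested, beside 47.9% of all 7867 transcripts, and quantile normalization 7, beside 3730 transcripts. Without a minimum, 9 of 35 anion channel and 5 of 18 cytochrome b5 genes were called, where 14.1% of 26272 transcripts were called. Voom called 8016 of 19165 transcripts (41.8%). It called 14 of 28 anion channel, 14 of 34 poly(A) tail and 6 of 18 cytochrome b5 genes, and the cause was not tested.

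The labels number the libraries 1 and 2 in each group and do not say what a number shares, so the pairing is by number only; deviations of same-numbered libraries correlated at 0.31 over 7867 transcripts. With the replicate block, limma called 4067 of the 7867 transcripts and 9 of the 19 poly(A) tail genes tested. Of the 8 acinar and duct markers tested, 8 passed in place of 0, and so did *Adipor1* (adjusted p = 0.0186) and *Poldip3* (adjusted p = 0.0211). Voom with the block called 10817 of 19165 transcripts, 19 of 28 anion channel, 19 of 34 poly(A) tail and 7 of 18 cytochrome b5 genes. Its differences were 4.15 for *Ttyh1*, 3.11 for *Fam46a*, 0.27 for *Ttyh3* (adjusted p = 0.0263), 0.91 for *Fam46b* and -0.46 for *Cyb5r4* (adjusted p = 3.1e-04).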
